A study of Mus musculus with 4 samples.

Results

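A set of 10 genes of serine synthesis, folate one-carbon metabolism and 2 linked amino acid pathways were followed across 4 expression arrays of male mouse colon. They were Phgdh, Psat1, Psph, Shmt1, Shmt2, Mthfd1, Mthfd2, Mthfd1l, Asns and Aldh18a1, chosen by symbol and with earlier results of these data known. The shares of all genes set beside their counts below are therefore for scale only. Every probe set (a group of short probes for 1 transcript) annotated with 1 of these symbols alone was used. That gave 28 of 45101 probe sets and 10 of 18194 named genes. One pair of arrays was made from H2B-GFP mice, in which a fluorescent histone is made under doxycycline control. After a labelling period of 7 days and 2 days without doxycycline, crypt epithelial cells were sorted into GFPhigh cells, which had kept the label and are called non-proliferating, and GFPlow cells, which had diluted it and are called proliferating. The other was made from isolated crypts of mice with doxycycline-inducible β-catenin, the effector of canonical Wnt signalling. Dox minus mice were untreated, and Dox plus mice drank doxycycline at 2.0 mg/ml for 5 days, so doxycycline itself and β-catenin induction cannot be told apart. The sources used here do not give the strain, the age, the number of mice per array or the promoter that drives each transgene.

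Serine is made from the glycolytic intermediate 3-phosphoglycerate in a short chain of reactions catalysed by the products of Phgdh, Psat1 and Psph. The Shmt enzymes then split serine into glycine and a single carbon that is loaded onto tetrahydrofolate, and the Mthfd enzymes interconvert the loaded forms in the cytosol and in mitochondria. These carbon units feed purine, thymidylate and methionine synthesis, which dividing cells draw on. Asns makes asparagine from aspartate, and Aldh18a1 catalyses the first step of proline synthesis from glutamate. The transcription factor ATF4, active under amino acid shortage, and Myc are known regulators of several of these genes.

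The bases just upstream of 6 members are shown because they showed large differences in the values below (Phgdh, Psat1, Mthfd2 and Mthfd1l) or carried a match to a motif of a known regulator (Asns and Aldh18a1). The sequences are from RefSeq, build GRCm38.p6, each the 120 bases before the annotated gene start, 5′ to 3′ on the strand of the gene. Capitals mark every match to a searched motif on either strand.
Asns: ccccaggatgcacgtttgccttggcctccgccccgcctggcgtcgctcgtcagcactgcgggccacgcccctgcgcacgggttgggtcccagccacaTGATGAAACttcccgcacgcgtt
Aldh18a1: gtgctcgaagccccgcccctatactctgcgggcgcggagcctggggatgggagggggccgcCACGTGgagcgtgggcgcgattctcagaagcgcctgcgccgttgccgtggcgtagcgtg
Phgdh: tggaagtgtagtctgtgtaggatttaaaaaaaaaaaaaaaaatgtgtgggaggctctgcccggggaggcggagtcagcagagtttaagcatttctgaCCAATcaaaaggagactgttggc
Mthfd2: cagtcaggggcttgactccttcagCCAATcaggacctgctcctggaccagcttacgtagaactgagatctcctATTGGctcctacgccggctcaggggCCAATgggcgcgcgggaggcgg
Psat1: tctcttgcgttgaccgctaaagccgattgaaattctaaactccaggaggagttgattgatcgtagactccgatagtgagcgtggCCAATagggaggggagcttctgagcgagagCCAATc
Mthfd1l: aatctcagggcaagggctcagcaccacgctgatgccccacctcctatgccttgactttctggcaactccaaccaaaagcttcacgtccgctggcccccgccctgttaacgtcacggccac
These stretches lie at chr6:7693210-7693329 (Asns), chr19:40588464-40588583 (Aldh18a1), chr3:98339970-98340089 (Phgdh), chr6:83317605-83317724 (Mthfd2) and chr19:15925060-15925179 (Psat1, the first of its 2 annotated starts), all on the minus strand, and at chr10:3972955-3973074 on the plus strand (Mthfd1l, which held 0 matches).

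The motifs were searched in windows from 250 bases before to 50 bases after the start, on both strands, in 11 windows of the 10 members and in 32851 windows of all genes. The C/EBP-ATF response element TGATGNAAN, which ATF4 can bind with a partner, was found in Asns alone among the members, as TGATGAAAC at positions -23 to -15 from the start, and in 3.95% of all windows. The E-box CACGTG, the core bound by Myc with Max, was found in Aldh18a1 alone, at -59 to -54, and in 7.15% of all windows. The TCF cores CTTTGAT and CTTTGAA were found in 0 member windows, against 3.73% and 5.14% of all windows. The CCAAT box, added after the sequences were seen, occurred in 6 of the 10 members (Phgdh, Psat1, Psph, Shmt1, Mthfd1 and Mthfd2) and in 37.4% of all windows, and no match overlapped another motif. Mthfd2 held 3 CCAAT matches, at -96 to -92, -47 to -43 and -22 to -18, and Psat1 held 3, of which 1 lies after the start.

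All values are log2 expression values made with GCRMA by the authors. A floor of 5 was set, since lower values are governed by the background model, and a gene is measured in a pair when at least 1 of its 2 arrays reaches the floor. Each group was 1 array, so no test between groups was run, no difference has a replicate check, and a difference of at least 1 (2-fold) is a rule of size. Arrays held between 16945 and 17462 probe sets at or above the floor. All 10 epithelial markers were above the floor on all arrays, with mean levels of 14.15 (GFPhigh), 13.88 (GFPlow), 13.85 (Dox minus) and 13.93 (Dox plus). They mark epithelium, and the colon label itself was not checked against other parts of the gut. The 9 measured markers of dividing cells had a median difference of 2.17 in GFPlow, and of -0.60 in Dox plus. The 7 Wnt targets had medians of 1.32 and 2.43. In bulk RNA, fewer cells of a type and less RNA per cell cannot be told apart.

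The first comparison asked how the enzyme genes differ between proliferating and non-proliferating crypt cells. All 9 measured members were higher in GFPlow, where 53.2% of all measured genes were above 0. Of these 9, 6 were at least 2-fold higher (Phgdh, Shmt2, Mthfd2, Mthfd1l, Asns and Aldh18a1), against a background of 8.81% of 9381 measured genes, and 0 were 2-fold lower, against 4.3%. Their median difference was 1.505, against 0.04 over all measured genes. The tenth member, Psat1, was under the floor on both arrays and gives no difference.

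The second comparison asked how they differ after 5 days of doxycycline. All 10 members were measured and higher in Dox plus, where 55.0% of all measured genes were above 0. Of these 10, 5 were at least 2-fold higher (Phgdh, Psat1, Mthfd2, Mthfd1l and Asns), against 6.93% of 9537 measured genes, and 0 were 2-fold lower, against 5.35%. The median difference was 0.97, against 0.06 over all measured genes. Over all genes, 661 were 2-fold higher and 510 lower as deposited, but 526 and 608 with a loess correction fitted on measured probe sets, which put 5 members past 2-fold against 5.52% of genes. Phgdh, Mthfd2, Mthfd1l and Asns were past 2-fold in both pairs, 4 of the 9 members measured in both, where 2.03% of 9023 genes were.

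**Figure D1:**
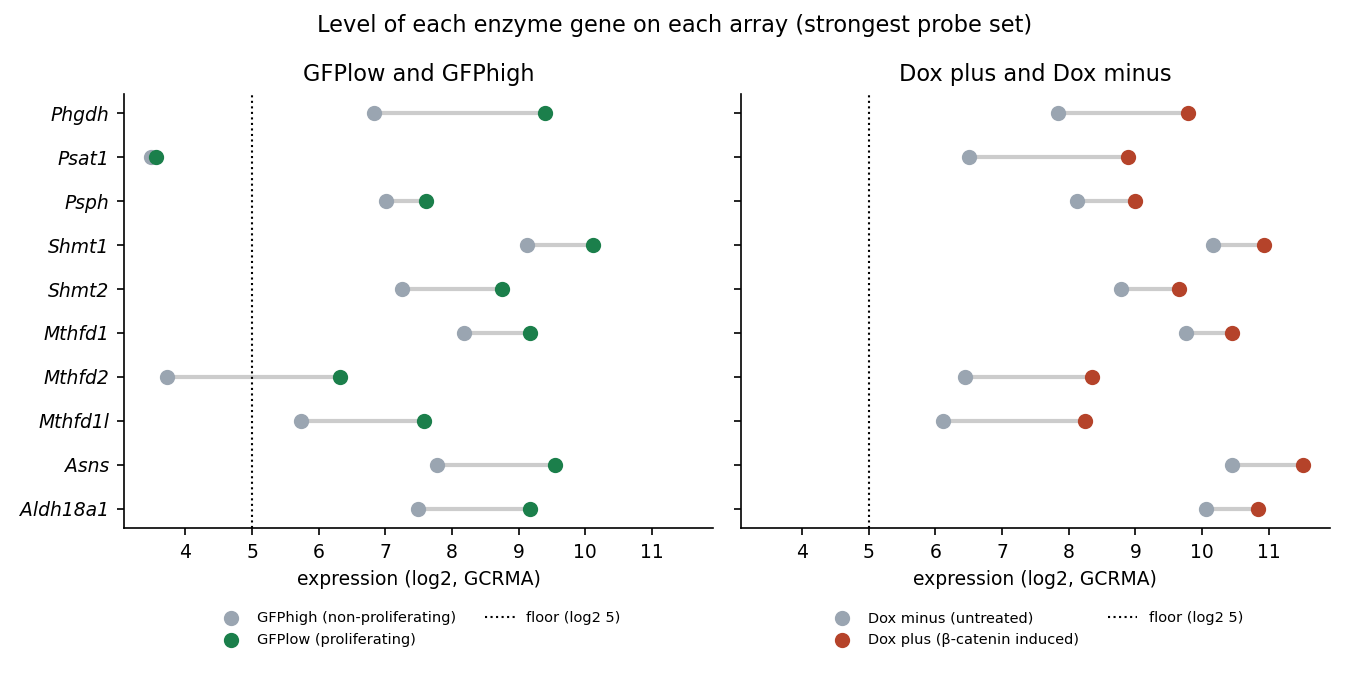
Level of each enzyme gene on the 4 arrays (log2 GCRMA value of its strongest probe set), GFPhigh and GFPlow on the left and Dox minus and Dox plus on the right, 1 array per point, with a dotted line at the floor of 5. Every coloured point lies to the right of its grey partner, except that both points of Psat1 lie under the floor in the sorted cells.

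Within the serine synthesis branch, Phgdh and Psat1 showed the large differences and Psph a smaller one. Phgdh, 3-phosphoglycerate dehydrogenase and the entry enzyme of the branch, read 6.83 in GFPhigh, 9.40 in GFPlow, 7.84 in Dox minus and 9.79 in Dox plus. It was thus 2.56 higher (5.91-fold) in GFPlow and 1.95 higher (3.86-fold) in Dox plus, above 99.3% and 98.9% of measured genes. Psat1, the aminotransferase that follows, read 3.48 in GFPhigh and 3.57 in GFPlow, both under the floor, and 6.51 in Dox minus and 8.89 in Dox plus. The difference of 2.38 (5.20-fold) after doxycycline was the largest of the 10 members when each is read by its strongest probe set. Psph, the phosphatase that releases serine, read 7.01, 7.61, 8.12 and 8.996 on the same arrays in the same order. It differed by 0.60 in the sorted cells and by 0.87 in the crypts, under 2-fold in both, and has 1 probe set.

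The folate enzymes are split between compartments, and in both pairs the cytosolic members were under 2-fold by their strongest probe sets. Shmt1, the cytosolic serine hydroxymethyltransferase, read 9.12 in GFPhigh, 10.12 in GFPlow, 10.16 in Dox minus and 10.92 in Dox plus, differences of 0.9991 and 0.77. Mthfd1, the cytosolic enzyme that carries 3 activities on folate, read 8.18, 9.17, 9.76 and 10.45, differences of 0.98 and 0.69. Both lay just under the 2-fold line in the sorted cells, and as the mean of their measured probe sets both lay just over it, at 1.08 and 1.02. In Dox plus, Shmt1 was at 1.26 as that mean and Mthfd1 at 0.72.

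Among the mitochondrial enzymes, again by strongest probe set, Mthfd2 and Mthfd1l were 2-fold higher in both pairs and Shmt2 in the sorted cells alone. Mthfd2, the mitochondrial dehydrogenase and cyclohydrolase, read 3.73 in GFPhigh, under the floor, and 6.32 in GFPlow, which gives a difference of at least 1.32. With a floor of 6 that bound dropped to 0.32. In the crypts it read 6.45 in Dox minus and 8.34 in Dox plus, a difference of 1.89 (3.72-fold). Mthfd1l, the mitochondrial formate-producing synthetase, read 5.73, 7.58, 6.12 and 8.24, differences of 1.85 (3.61-fold) and 2.13 (4.37-fold). Shmt2, the mitochondrial counterpart of Shmt1, read 7.25, 8.75, 8.78 and 9.66, differences of 1.505 (2.84-fold) and 0.88. In the sorted cells the differences of the mitochondrial members ranged from 1.32, the Mthfd2 bound, to 1.85. In the crypts they ranged from 0.88 to 2.13. By strongest probe set all were above those of the 2 cytosolic members. That order was not tested and did not hold for single probe sets, as given further on for Shmt1. It also did not hold for means of measured probe sets. Shmt2 was then at 0.85 in the sorted cells and 0.66 in the crypts. Shmt1 was at 1.08 and 1.26, and Mthfd1 at 1.02 and 0.72.

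By their strongest probe sets, Asns and Aldh18a1, which serve asparagine and proline, differed more between the sorted cells than between the crypts. Asns, asparagine synthetase and the member with the ATF element printed above, read 7.78 in GFPhigh, 9.54 in GFPlow, 10.45 in Dox minus and 11.51 in Dox plus. It was 1.76 higher (3.40-fold) in GFPlow and 1.06 higher (2.09-fold) in Dox plus. Aldh18a1, the member with the E-box, read 7.49, 9.17, 10.06 and 10.84, differences of 1.68 (3.20-fold) and 0.78 (1.72-fold). Its other probe sets were split. The order was the same at 1.99 or more against 1.07 and at 0.83 or more against 0.48. It was the opposite at 0.19 against 0.61 and at -0.01 against 0.45. Whether the pairs differ from each other was not tested, because each rests on 1 array per group.

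Where a member has several probe sets, most pointed the same way but their sizes differed. In the sorted cells 24 of the 28 member probe sets were measured, 21 were above 0 and 12 were at least 2-fold higher, against 51.3% and 8.31% of all measured probe sets with 1 symbol. In the crypts 27 were measured, 26 were above 0 and 14 at least 2-fold higher, against 56.6% and 7.88%. None was 2-fold lower in either pair, where 4.3% and 5.35% of all measured genes were by their strongest probe sets. The lowest differences were -0.09 in the sorted cells, in a probe set of Shmt1, and -0.20 in the crypts, in a probe set of Shmt2.

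**Figure D2:**
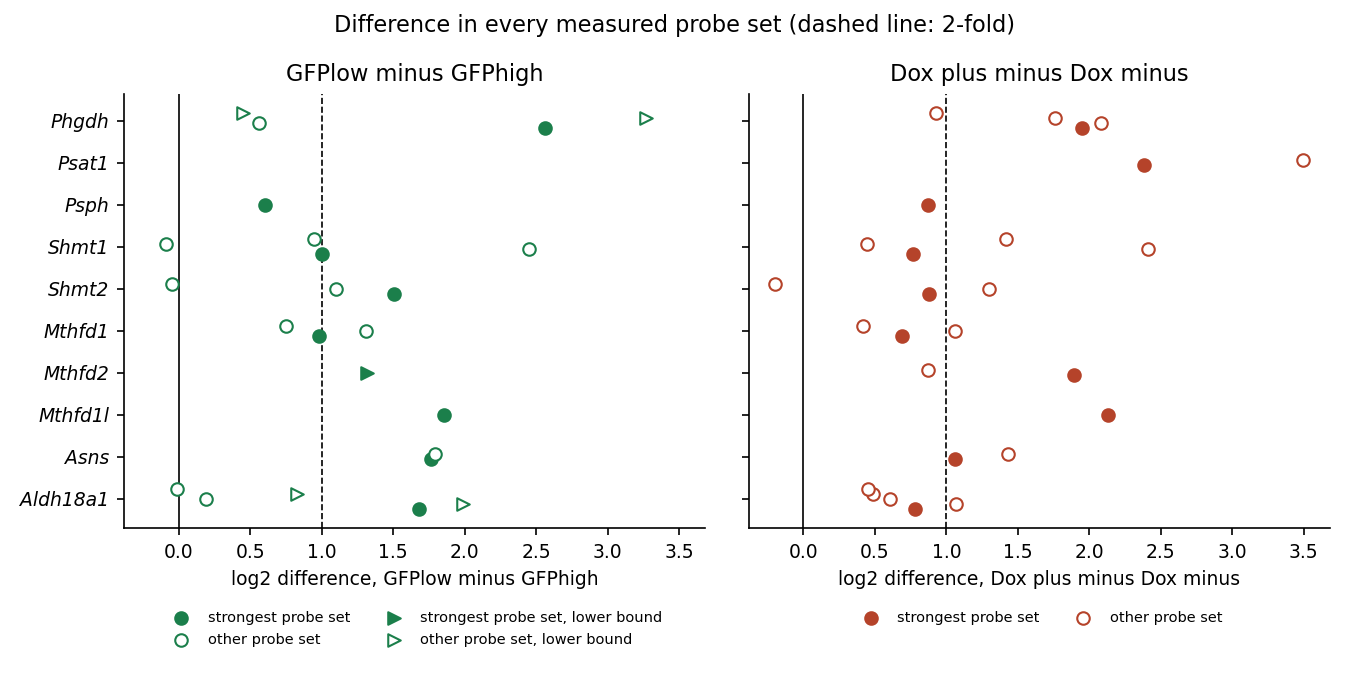
Log2 difference in every measured probe set of each gene, GFPlow minus GFPhigh on the left and Dox plus minus Dox minus on the right; filled symbols are the strongest probe set and triangles are lower bounds where 1 array lay under the floor. Asns probe sets nearly coincide at 1.76 and 1.79 on the left, while those of Shmt1 run from -0.09 to 2.45.

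Asns was the most even of the members with several probe sets in the sorted cells. Its second probe set read 8.52, 10.31, 9.17 and 10.60 and differed by 1.79 and 1.43. Psat1's second probe set read 2.24, 3.45, 5.07 and 8.57 and differed by 3.50 in the crypts, the largest difference of any member probe set there. Both Psat1 probe sets were thus under the floor in both kinds of sorted cell and above it in both kinds of crypt preparation. The 4 Phgdh probe sets differed by 2.56, 0.56, at least 3.27 and at least 0.45 in the sorted cells, and by 1.95, 2.08, 1.76 and 0.92 in the crypts. Their mean was at least 1.71 in the sorted cells and 1.68 in the crypts, past 2-fold in both. A further 2 Phgdh probe sets carry a second gene symbol and were not used.

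The 4 Shmt1 probe sets gave unlike sizes. One read 5.31, 7.77, 7.80 and 10.22 and differed by 2.45 in the sorted cells and 2.41 in the crypts. Another read 9.49, 9.39, 9.34 and 9.78 and differed by -0.09 and 0.44, while the remaining one differed by 0.95 and 1.41. Which Shmt1 transcripts each of them matches was not examined. Shmt2 had 2 probe sets with differences of 1.505 and 1.10 in the sorted cells and 0.88 and 1.30 in the crypts. Another read 6.21, 6.16, 6.54 and 6.34, flat within both pairs, and the last was under the floor on all 4 arrays. The mean of the measured Shmt2 probe sets was therefore 0.85 in the sorted cells, under 2-fold.

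Mthfd1 was more even, with differences of 0.98, 1.31 and 0.75 in the sorted cells and 0.69, 1.06 and 0.42 in the crypts. The second Mthfd2 probe set was under the floor in both sorted populations (3.27 and 4.26) and differed by 0.87 in the crypts. The 5 Aldh18a1 probe sets ranged from -0.01 to at least 1.99 in the sorted cells and from 0.45 to 1.07 in the crypts. Their mean was 0.68 in the crypts and at least 0.94 in the sorted cells, where 2 of the 5 values are bounds. Whether that mean passed 2-fold in the sorted cells cannot be told. The strongest probe set did, at 1.68, and so did another that read 3.65 in GFPhigh and 6.99 in GFPlow, at least 1.99 apart. The rest differed there by 0.19, at least 0.83 and -0.01. For 7 of the 10 members the strongest probe set ends in _x_at, _s_at or _a_at, a suffix for sets that can match several transcripts. Phgdh, Psat1 and Mthfd1l have no other kind, and all 4 Phgdh probe sets end in _x_at. Whether transcripts of other genes add to the signal of these sets was not examined.

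**Figure D3:**
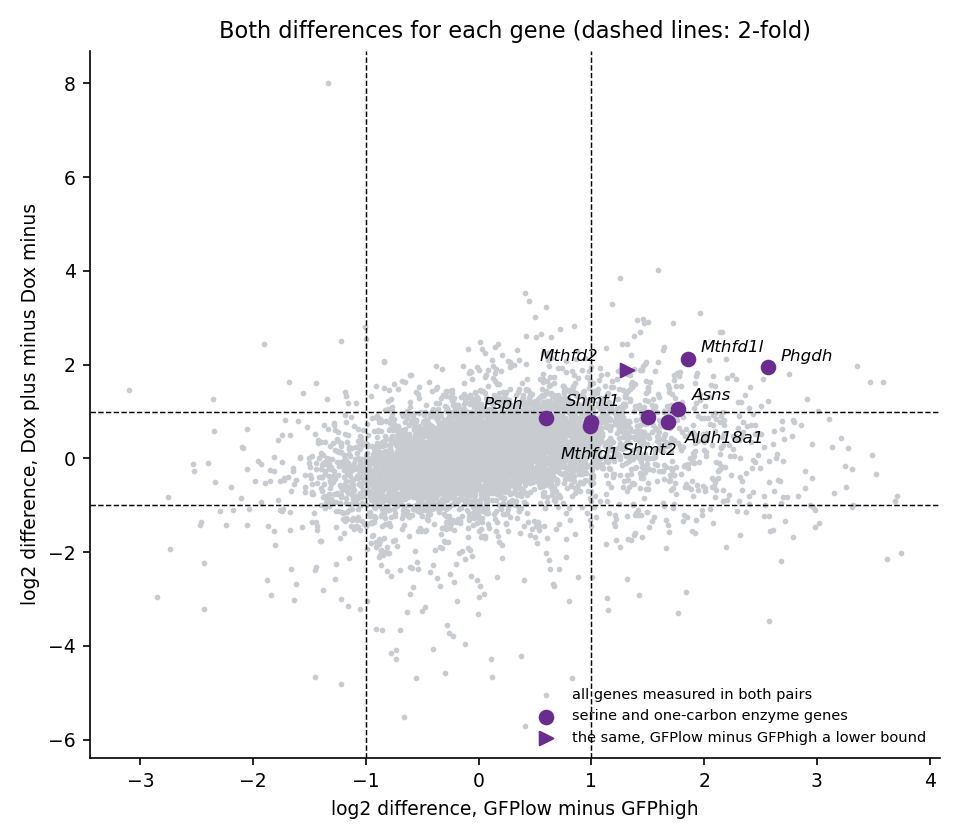
Log2 difference GFPlow minus GFPhigh (horizontal) against Dox plus minus Dox minus (vertical) for the 9023 genes measured in both pairs (grey) and the 9 enzyme genes among them (purple; the triangle marks a lower bound). All 9 lie in the upper right quadrant, with Phgdh, Mthfd1l, Mthfd2 and Asns beyond 2-fold on both axes.

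Both differences were above 0 for 9 of 9 members, where 37.4% of the 9023 genes measured in both pairs had both above 0. Most markers of dividing cells did not share this arrangement. Mki67, the proliferation marker Ki-67, read 9.68 in GFPhigh and 11.85 in GFPlow but 11.47 in Dox minus and 10.80 in Dox plus. Of 9 such markers 9 were higher in GFPlow and 2 in Dox plus. Those 2 were Pcna (0.83 and 0.63) and Mcm2 (at least 2.31 and 0.91), above 0 in both pairs like the members. The Wnt targets were higher in both, among them Lgr5 (at least 1.25 and 3.84), Axin2 (1.32 and 2.43) and Myc, which read 7.997, 9.46, 8.81 and 11.69 (1.46 and 2.88).

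Crypt cell types also shifted within the pairs. In the sorted cells the 8 goblet markers had a median of 0.52 and the 8 colonocyte markers one of -0.96, with mean levels of 13.48 in GFPhigh and 12.63 in GFPlow for the latter. In the crypts, Dox plus was at least 2-fold lower in all 7 enteroendocrine markers, with mean levels of 10.07 and 7.35. Few markers of non-epithelial cells were measured. The T cell, B and plasma cell, myeloid and fibroblast lists had 1 of 6, 1 of 5, 2 of 6 and 2 of 7 measured in the sorted cells, and 2, 1, 3 and 2 in the crypts, the endothelial, smooth muscle and red blood cell lists had 0, and the neural list had 0 and 1. In the crypts the mean levels of the first 4 of these lists were 4.17, 4.32, 4.67 and 4.53 in Dox minus and 4.01, 3.48, 4.75 and 3.92 in Dox plus. Those of the neural list were 4.39 and 4.21. Cd3e, Cd79a, Itgam and Col1a1 were under the floor on all 4 arrays, but other markers of these lists were not. The plasma cell gene Jchain read 7.53 in Dox minus and was under the floor in Dox plus, a difference of -2.53 or beyond, and the mesenchymal gene Vim read 8.43 and 6.64 (-1.78). The leukocyte gene Ptprc read 7.19 and 6.58 in the crypts, and the myeloid gene Lyz2 read 5.59 and 6.30. Itgae, an integrin of intraepithelial T cells, read 5.50 in GFPhigh and 6.53 in GFPlow (1.03), and 6.75 and 6.93 in the crypts. The part of these shifts in the enzyme differences was not tested.

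The same 2 differences were used to find the genes closest to Phgdh, by Euclidean distance among 8578 genes at or above the floor on all 4 arrays. Closest to Phgdh were Rpf2 (2.75 in the sorted cells and 1.80 in the crypts), Gpld1 (2.52 and 1.70), the spermidine synthase Srm (2.24 and 1.78), Wdr12 (2.29 and 1.70) and the RNA polymerase I subunit Polr1a (2.20 and 1.71). Distances ran from 0.24 to 0.44. With 2 differences from 4 arrays, such closeness describes the values and nothing more.

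Other genes of the surrounding pathways were less uniform. Of 21 further folate cycle and transport genes, 10 were measured in the sorted cells, with 2 at least 2-fold higher, 1 lower and a median of -0.14, which was 0.44 over 8 genes without suffixed probe sets. In the crypts 12 were measured, with 4 higher, 1 lower and a median of 0.32. The reduced folate carrier gene Slc19a1 was higher in both pairs, at 6.42, 8.14, 7.33 and 8.70, differences of 1.72 and 1.37. Gart, whose product uses formyl folate in purine synthesis, differed by 1.07 and 1.29, and Atic, which uses it at a later step, by 0.88 and 1.70. Fpgs, which adds the glutamate tail that holds folate in the cell, was under the floor in both sorted populations and at least 1.08 higher in Dox plus. The proton-coupled folate transporter gene Slc46a1 was lower in GFPlow (-1.12), and Ggh, which removes that tail, was lower in Dox plus (-1.22) and differed by -0.50 in the sorted cells.

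Mthfd2l, the paralogue of Mthfd2 with a like reaction in mitochondria, did not follow it, at 8.02, 7.82, 7.19 and 7.36, differences of -0.20 and 0.16. Tyms, thymidylate synthase, was under the floor on all 4 arrays. Aldh1l1, the cytosolic formyl folate dehydrogenase, differed by -0.08 and 0.11. Aldh1l2, its mitochondrial form, was measured in the crypts alone, at 5.48 in Dox minus and under the floor in Dox plus.

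**Figure D4:**
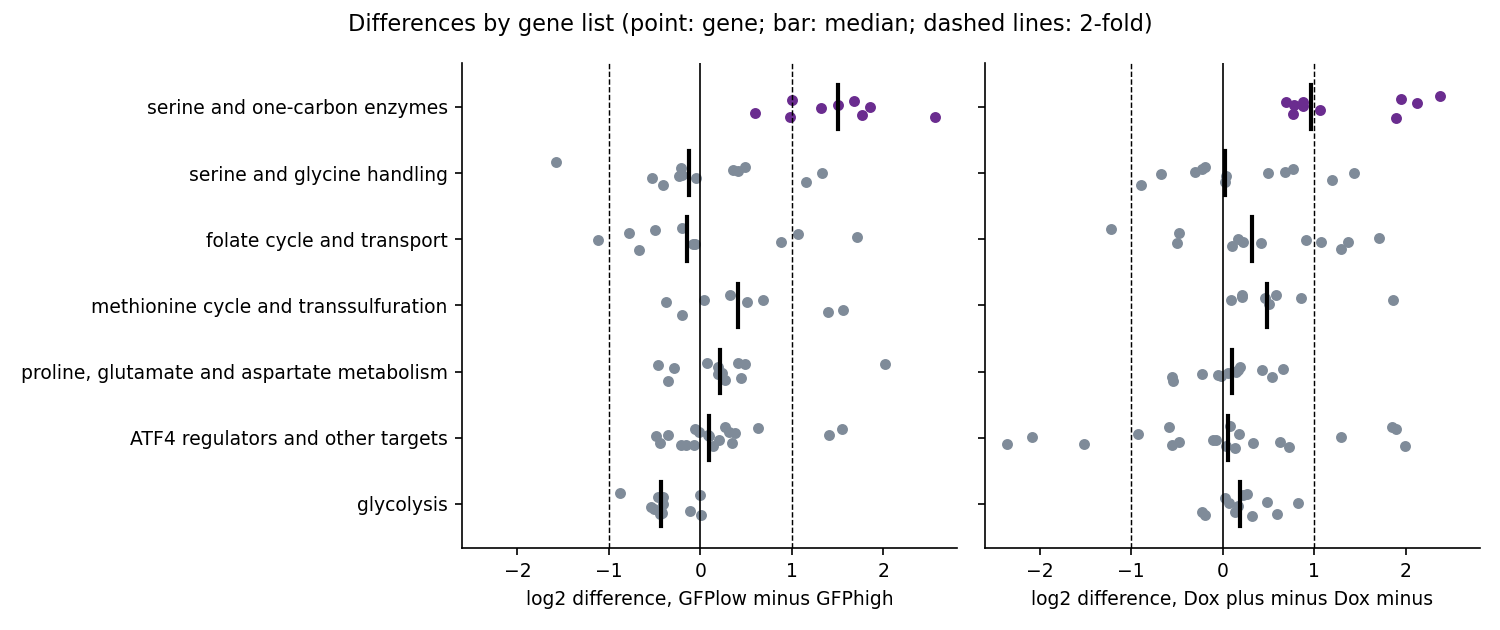
Log2 differences of the measured genes of each list, GFPlow minus GFPhigh on the left and Dox plus minus Dox minus on the right; each point is a gene (values with 1 array under the floor are bounds) and the black bar is the median. The enzyme genes, in purple, have medians of 1.505 and 0.97, and the other lists lie between -0.42 and 0.48.

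Genes that move or use serine and glycine had medians of -0.12 and 0.03 over 12 measured genes in each pair. The neutral amino acid transporter gene Slc38a1 was 2-fold higher in both (1.33 and 1.44), Slc1a4 in GFPlow (1.16) and the glycine transporter gene Slc6a9 in Dox plus (1.20). Sfxn3, of the family of mitochondrial serine carriers, was lower in GFPlow (-1.58), and its relative Sfxn1 differed by 0.49 in each pair. Methionine cycle and transsulfuration genes had medians of 0.42 and 0.48 over 8 measured genes. Mtap, which recycles the methylthio group left by polyamine synthesis, was 2-fold higher in both pairs (1.56 and 1.86). Cbs, which joins serine to homocysteine, was higher in GFPlow (1.39) and differed by 0.58 in Dox plus.

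Of the proline, glutamate and aspartate genes, 1 of 13 measured in the sorted cells was past 2-fold and 0 of 12 in the crypts. Prodh, which breaks proline down, stood at least 2.02 higher in GFPlow and differed by 0.14 in Dox plus. Aldh4a1, which turns the product of Aldh18a1 back to glutamate, differed by -0.29 and -0.05. Pycrl, for the last step of proline synthesis, differed by 0.45 and 0.54, and Pycr1 had no probe set with that symbol alone. Glycolysis genes, of the pathway from which the Phgdh branch leaves, had mostly lower values in GFPlow. Of 12 measured, 2 were above 0 there, with a median of -0.42, while 10 were above 0 in Dox plus, with a median of 0.19, and 0 were past 2-fold in either pair. Pgam1, whose product takes the same 3-phosphoglycerate on down glycolysis, differed by -0.42 and 0.31.

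ATF4, its upstream kinases and its other targets showed no common direction. Atf4 itself read 11.56, 11.94, 10.20 and 10.34, differences of 0.38 and 0.14. These are RNA levels, and neither the amount nor the activity of ATF4 protein was measured. Its part in the enzyme differences was not tested. Of 19 measured genes in the sorted cells 2 were 2-fold higher, the arginine transporter gene Slc7a1 (1.54) and the mitochondrial enzyme gene Pck2 (1.41), and 0 lower, with a median of 0.10. Of 20 in the crypts 4 were higher and 3 lower, with a median of 0.06. The higher ones were Atf5 (1.99), the translation inhibitor gene Eif4ebp1 (1.89), the large neutral amino acid transporter gene Slc7a5 (1.86) and Ddit4 (1.29). The lower ones were Nupr1 (-2.36), the interferon-inducible kinase gene Eif2ak2 (-2.09) and Atf3 (-1.52). Trib3, Chac1 and the cystine transporter gene Slc7a11 were under the floor on all 4 arrays.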

How the data were processed

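Total RNA was measured on 4 arrays, 1 per group. The authors deposited 1 log2 value per probe set. GCRMA was used, per the submitters' processing notes; the sources used here give neither its version nor which arrays it was run on together. That the scale is log2 was inferred from the range of the values (0.47 to 16.27). A platform annotation named probe sets: 34958 had 1 symbol, 932 several and 9211 none, and the last 2 kinds were not used. Identifiers of 34754 were found in a RefSeq gene table (GRCm38.p6), with 0 symbols changed.

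For each gene the strongest probe set, by mean over all 4 arrays, was taken. Values under the floor of 5 were raised to it, which makes a difference a lower bound where 1 array lay under it. Differences were taken within a pair only. The members and gene lists were chosen with earlier results of these data known. Named are all members, list genes past 2-fold (at most 4 per list and pair by size), a fixed set (Atf4, Myc, Tyms, Mthfd2l, Slc7a11, Pycr1) and the 5 genes nearest to Phgdh (those nearest to Mthfd2 are not given, since the floor sets its difference in the sorted cells); other list genes (Fpgs, Atic in the sorted cells, Aldh1l1, Aldh1l2, Sfxn1, Pycrl, Pgam1, Slc7a5, Atf3, Ddit4, Trib3, Chac1 and Aldh4a1) were added after their values were seen. Alternatives were floors of 4 and 6, no floor, quantile normalization, loess (span 0.4), the mean of probe sets, leaving out suffixed probe sets, and thresholds of 3-fold and 1.5-fold; a loess fit on measured probe sets was added after seeing the data. The number of arrays limits precision. The calling steps were tested on simulated data. Python 3.11.15, numpy 2.4.6, pandas 2.3.3 and statsmodels 0.14.6 were used.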

Additional observations from a re-analysis of the deposited data

How the results depend on the processing

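No paired analysis was possible because each group has 1 array and the labels carry no replicate numbers. No member difference changed sign in 70 alternative values for the sorted cells or in 77 for the crypts. Part of this was fixed in advance, since another floor cannot reverse a difference. For members with 1 measured probe set, the mean also repeats the main value. Single probe sets of Shmt1, Shmt2 and Aldh18a1 lay under 0, as given above. Of the 70 and 77 values, 5 and 4 changed their side of 2-fold. The count of members at least 2-fold higher in the sorted cells stayed between 4 and 6 under the other floors, scalings and probe set choices (4 of the 7 members left without suffixed probe sets), was 4 at a 3-fold threshold and 9 at 1.5-fold. The members counted were not always the same. With the mean of probe sets the count was again 6, without Shmt2 (0.85) and Aldh18a1 but with Shmt1 (1.08) and Mthfd1 (1.02). The Aldh18a1 mean is a lower bound (at least 0.94), so whether it passed 2-fold cannot be told. In the crypts the count was 5 or 6 under the other floors, scalings and probe set choices. It was 4 at 3-fold, and 10 at 1.5-fold, since a lower threshold takes in the members between 0.69 and 0.88. Without suffixed probe sets it was 5 of the 7 members left: Phgdh, Psat1 and Mthfd1l had no value, while Shmt1, Shmt2 and Aldh18a1 came in. The shares of all genes past 3-fold or 1.5-fold were not computed, so the counts at these thresholds have no background beside them. The median of the members ranged from 1.08 to 1.68 in the sorted cells and from 0.89 to 1.30 in the crypts. Single values that moved by over 1.5 times without a change of sign were Phgdh, Shmt2 and Aldh18a1 as means of probe sets in the sorted cells, Mthfd2 there under each other floor (2.32 with a floor of 4, 0.32 with 6, 2.59 with none), and Shmt1 in the crypts without suffixed probe sets (1.41); in the last setting Shmt2 was at 1.30 and Aldh18a1 at 1.07, past 2-fold. Of the list medians, that of the folate cycle and transport genes in the sorted cells turned from -0.14 to 0.44 in that setting, which leaves 8 measured genes in place of 10. Other medians that changed sign lay near 0: in the crypts those of serine and glycine handling (0.03), proline, glutamate and aspartate metabolism (0.10) and the ATF4 list (0.06) lay just under 0 with quantile normalization or the loess fit on measured probe sets, and that of the ATF4 list in the sorted cells (0.10) to -0.04 without suffixed probe sets.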
